A study of Mus musculus with 9 samples.

Results

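The regions described here had a peak of the active histone mark H3K27ac in 2 of 4 libraries, which form a knock-out and a knock-in pair. Within each pair, the peak was in the library with more Ets1 by design and not in the other. They were chosen by overlap between the 4 deposited H3K27ac peak lists: a peak of the Flox list became a member when it overlapped no EAKO peak, overlapped a peak of the EA+/+ list by at least 1 bp and overlapped no EC+/+ peak. Of 86834 Flox peaks, 2197 were members, or 2.53% (95% Wilson interval 2.43 to 2.64, which like every interval below covers counting error only). The reverse pattern, a peak in EAKO and EC+/+ and none in Flox or EA+/+, was met by 1057 of 74682 EAKO peaks, or 1.42%.

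Ets1 is a transcription factor of the ETS family, whose members share a DNA-binding domain and bind around a GGAA core. H3K27ac is written by the acetyltransferases CBP and p300 and removed by histone deacetylases, and it marks promoters and enhancers that are in use. In inguinal white fat, cold exposure turns part of the adipocytes into beige cells, which are rich in mitochondria and burn fuel for heat.

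The study profiled mature adipocytes, the floating fraction of collagenase-treated inguinal fat from male mice of 8 to 10 weeks. In the knock-out pair, Flox mice carried floxed Ets1 alleles and no Cre, and EAKO mice carried the same alleles with Adipoq-cre, which recombines in adipocytes. In the knock-in pair, EC+/+ mice held an Ets1 coding sequence behind a loxP-stop-loxP cassette at the Hipp11 locus with no Cre, and EA+/+ mice held the same cassette with Adipoq-cre, so that Ets1 was produced in adipocytes. Cre was therefore present in EAKO and EA+/+ and absent from both controls, and a member is a region found in 1 library with Cre and 1 without. More or less Ets1 by design thus holds only within a pair. A member has a peak in 1 control, Flox, and none in the other, EC+/+. H3K27ac and Ets1 were mapped by CUT&Tag and open chromatin by ATAC-seq in Flox and EAKO. Ets1 itself was mapped in wild-type C57 mice, in adipocytes kept at room temperature (RT) or in the cold for 7 days (CS), and in beige adipocytes that were differentiated for 6 days in culture from the stromal-vascular cells of mice aged 3 to 4 weeks. Each group was 1 library, so there was no replicate error, no comparison between groups could be tested, and each difference below compares libraries.

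The 4 H3K27ac lists were of unequal length, with 86834 peaks in Flox, 74682 in EAKO, 38484 in EA+/+ and 33713 in EC+/+, and the study lists near-equal read totals for Flox and EAKO and a higher total for EA+/+ than for EC+/+. Of 39 adipocyte genes, 26 to 30 had a promoter peak in each of the 4 lists, against 6 to 7 of 22 macrophage genes. Adipose stem and progenitor genes had one at 13 to 20 of 23, and endothelial genes at 9 to 14 of 20. Of all 21911 protein-coding genes, 11044 to 13998 had one, so these counts do not show how pure the adipocytes were. Around the Ets1 gene itself, within 100 kb, there were 29 Flox and 31 EAKO peaks and 7 EA+/+ and 9 EC+/+ peaks, which does not check the deletion or the transgene, since a peak list cannot show either.

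The sequences below show what the strongest members were made of. Each is the plus strand of mm10, read from the reference 100 bp to each side of the Flox summit, and 3 of the 4 of highest score come first. The score of a member is the lower of its Flox −log10 q and the −log10 q of its EA+/+ peak, so that a high score needs a strong peak in both. Capitals mark runs of at least 6 CA in Cdh11, and Tcte2 and Hic2 carry no mark.
Tcte2: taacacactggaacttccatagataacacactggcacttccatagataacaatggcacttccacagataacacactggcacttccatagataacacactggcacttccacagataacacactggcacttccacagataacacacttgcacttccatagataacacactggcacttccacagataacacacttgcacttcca
Cdh11: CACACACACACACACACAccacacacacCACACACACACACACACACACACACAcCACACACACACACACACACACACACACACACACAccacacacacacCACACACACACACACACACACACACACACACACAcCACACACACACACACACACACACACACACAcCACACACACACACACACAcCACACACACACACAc
Hic2: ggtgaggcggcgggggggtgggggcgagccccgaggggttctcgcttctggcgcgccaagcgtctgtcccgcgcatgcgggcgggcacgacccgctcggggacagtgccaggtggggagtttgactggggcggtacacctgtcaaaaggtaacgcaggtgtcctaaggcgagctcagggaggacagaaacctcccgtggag
The Tcte2 window at chr17:13589849-13590049 and the Cdh11 window at chr8:103390689-103390889 are intergenic and made of tandem repeats, in Cdh11 of CA, with a longest unbroken run of 34 bases. All letters of both windows are repeat-masked in the reference. The Hic2 window at chr16:17222239-17222439 is intergenic, G+C-rich and 9.95% masked. Low masking does not show that a sequence has a single copy in the genome, and the number of copies was not tested.

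The next sequences carry the ETS core CCGGAA, searched on both strands and shown in capitals (TTCCGG where it lies on the minus strand). Gabpb1, Cox4i1, Vps54 and Aldh1a2 are the 4 members with that core, a Flox ATAC peak, no EAKO ATAC peak and an Ets1 peak in CS or beige, a set chosen after the values were seen, and Clip1 and Rnf144a are members of high score. Where the window touches an annotated UTR, 30 bases around the core are shown.
Gabpb1: ggatgatctgggTTCCGGgggaagtggaat
Cox4i1: tccgtcttggtcTTCCGGttgcgggccccg
Vps54: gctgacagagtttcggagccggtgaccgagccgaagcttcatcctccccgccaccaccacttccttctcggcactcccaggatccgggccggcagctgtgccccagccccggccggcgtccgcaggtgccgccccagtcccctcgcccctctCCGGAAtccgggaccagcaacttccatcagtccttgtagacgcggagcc
Aldh1a2: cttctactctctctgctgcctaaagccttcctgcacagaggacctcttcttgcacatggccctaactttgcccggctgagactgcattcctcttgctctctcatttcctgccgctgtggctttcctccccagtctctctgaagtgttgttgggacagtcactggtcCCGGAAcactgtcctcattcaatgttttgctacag
Clip1: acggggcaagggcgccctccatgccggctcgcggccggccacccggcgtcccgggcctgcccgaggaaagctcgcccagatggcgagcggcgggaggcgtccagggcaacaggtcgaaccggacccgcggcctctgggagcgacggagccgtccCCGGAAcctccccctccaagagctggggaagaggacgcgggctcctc
Rnf144a: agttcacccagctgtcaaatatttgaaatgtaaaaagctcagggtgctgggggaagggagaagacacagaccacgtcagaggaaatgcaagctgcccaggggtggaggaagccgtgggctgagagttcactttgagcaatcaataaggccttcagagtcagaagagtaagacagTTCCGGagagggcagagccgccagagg
These lie at chr2:126675255-126675284, chr8:120668258-120668287, chr11:21239468-21239668, chr9:71288838-71289038, chr5:123683708-123683908 and chr12:26068419-26068619. The first 3 and Clip1 are at promoters, Aldh1a2 is in an intron and Rnf144a is intergenic. The search was around the Flox summit, so a core need not lie in the stretch shared with EA+/+. The printed core is inside the EA+/+ peak at Cox4i1 and Clip1, and outside it at Gabpb1, Vps54, Aldh1a2 and Rnf144a. At Aldh1a2 it also lies past the end of the Flox peak.

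**Figure D1:**
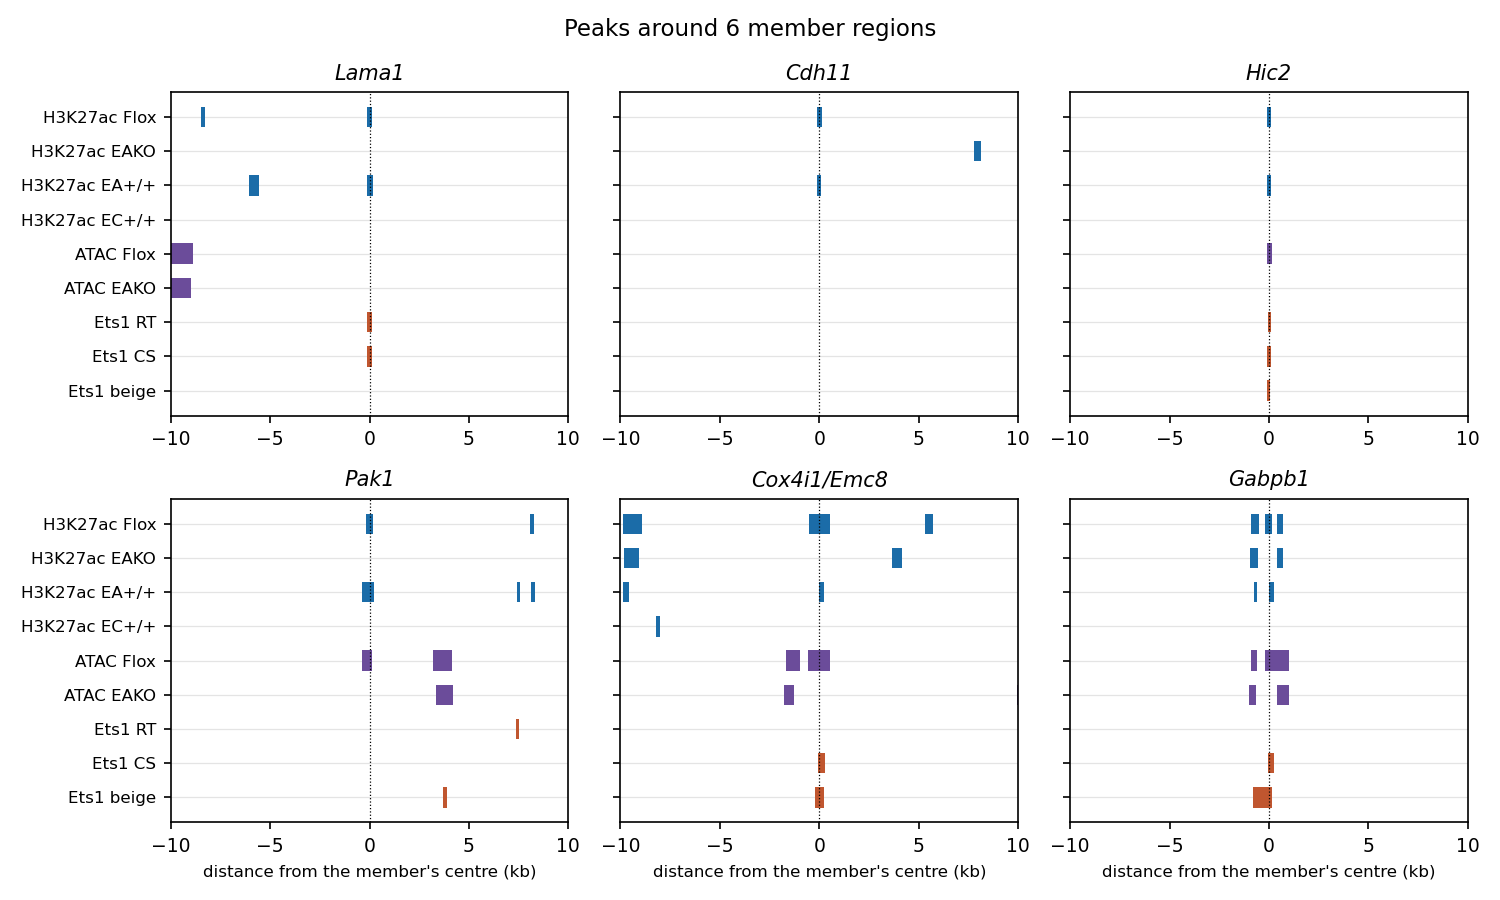
Peaks of the 9 libraries within 10 kb of 6 members, with distance from the member's centre in kb on the x axis and 1 row for each library. Bars span the deposited peaks. Each centre has a Flox and an EA+/+ H3K27ac peak and none in EAKO or EC+/+, as the rule demands, while ATAC and Ets1 peaks, which the rule did not use, range from none at Cdh11 to 4 libraries at Hic2.

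Overlap with EA+/+ and not EC+/+ was no more frequent among Flox peaks lost in EAKO than among all Flox peaks. Of all Flox peaks, 35.9% overlapped no EAKO peak, and of all EAKO peaks, 26.0% overlapped no Flox peak. In the knock-in pair the lists differed more, as 60.7% of EA+/+ peaks overlapped no EC+/+ peak and 54.9% of EC+/+ peaks no EA+/+ peak. That overlap was found in 7.04% of the 31214 Flox-only peaks, which are the members, and in 8.21% of all Flox peaks. Likewise, the opposite regions were 5.44% of the 19417 EAKO-only peaks, while 8.76% of all EAKO peaks met an EC+/+ peak and no EA+/+ peak.

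The regions in which the models went opposite ways were nearly as many as those in which both followed Ets1. Flox-only peaks that met an EC+/+ peak and no EA+/+ peak numbered 1767, and EAKO-only peaks that met an EA+/+ peak and no EC+/+ peak numbered 1402, both following the absence or presence of Cre rather than Ets1. Members and opposite regions together were 3254 of the 6423 regions that were one-sided in both models, or 50.7% (49.4 to 51.9). Among Flox-only peaks met by a single knock-in list, 55.4% (53.9 to 57.0, 2197 of 3964) met the EA+/+ list. Among EAKO-only peaks that share was 57.0% (55.0 to 59.0, 1402 of 2459), with an interval that overlapped the first, so the lean to EA+/+ was found where EAKO gained a peak as well as where it lost a peak. Among peaks that Flox and EAKO shared it was 48.0% (47.1 to 49.0). With the 4 lists cut to their 33713 best peaks by −log10 q, as many as the shortest list holds, the Flox-only share was 44.9% and the EAKO-only share 45.3%, and there were 554 members and 634 opposite regions, so that the order of both counts turned. Only 157 of those 554 were among the 2197.

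**Figure D2:**
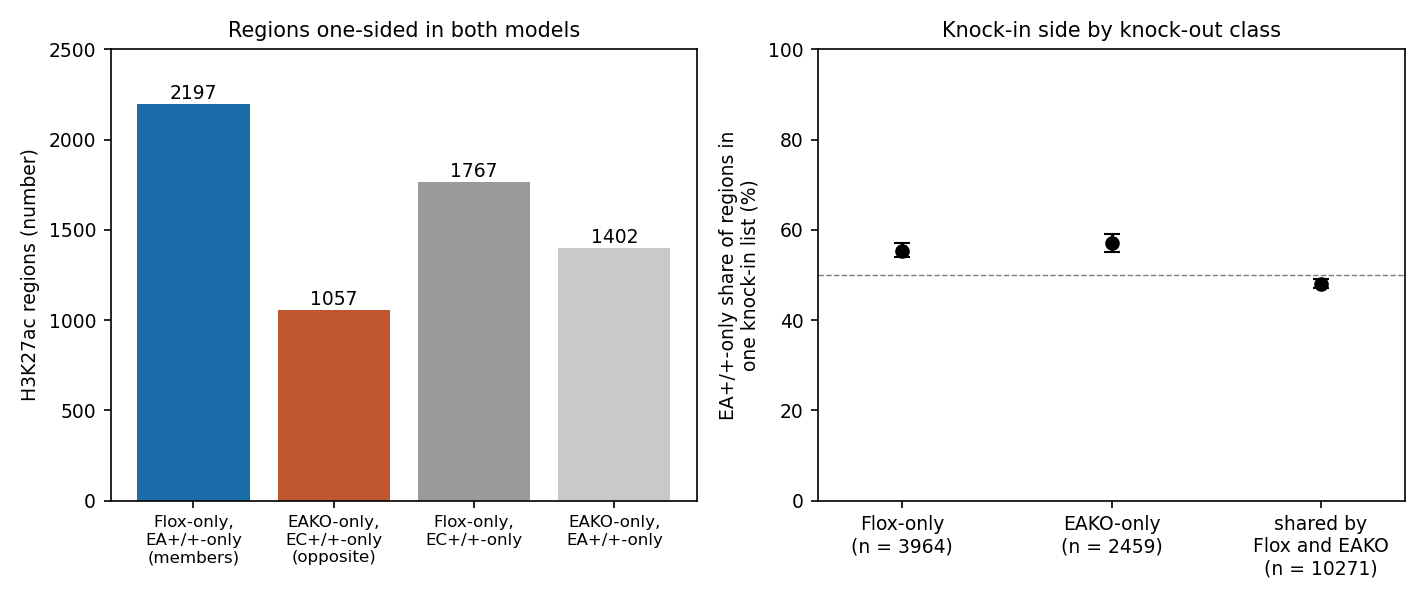
Left, number of H3K27ac regions in each of the 4 sets that are one-sided in both models (bars start at 0), 2197 members, 1057 opposite, and 1767 and 1402 in the sets where the models went opposite ways. Right, percent of regions met by a single knock-in list that met EA+/+, by knock-out class, with 95% Wilson intervals and a dashed line at 50%, where the Flox-only point at 55.4% and the EAKO-only point at 57.0% lie side by side.

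Members were mostly weak and short peaks, which is a description, since the rule chose on presence in these lists. Their −log10 q in Flox had a median of 3.75, with quartiles at 2.71 and 5.00 and a range of 1.31 to 81.0. Flox peaks shared with EAKO had a median of 9.11, and those met in all 4 lists 25.6. A median member was 288 bp wide, with a range of 195 to 1132 bp, and lay at the percentile 28.6 of the Flox list, with 80.4% of members under the median of that list. In EA+/+, the members' peaks had a median −log10 q of 2.96 against 3.29 for the whole list. By score, 756 members (34.4%) had at least 3 in both libraries, 93 (4.23%) at least 5 and 5 at least 10. The opposite regions were alike in this, with a median −log10 q of 3.72 in EAKO and 23 of them at a score of at least 5.

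**Figure D3:**
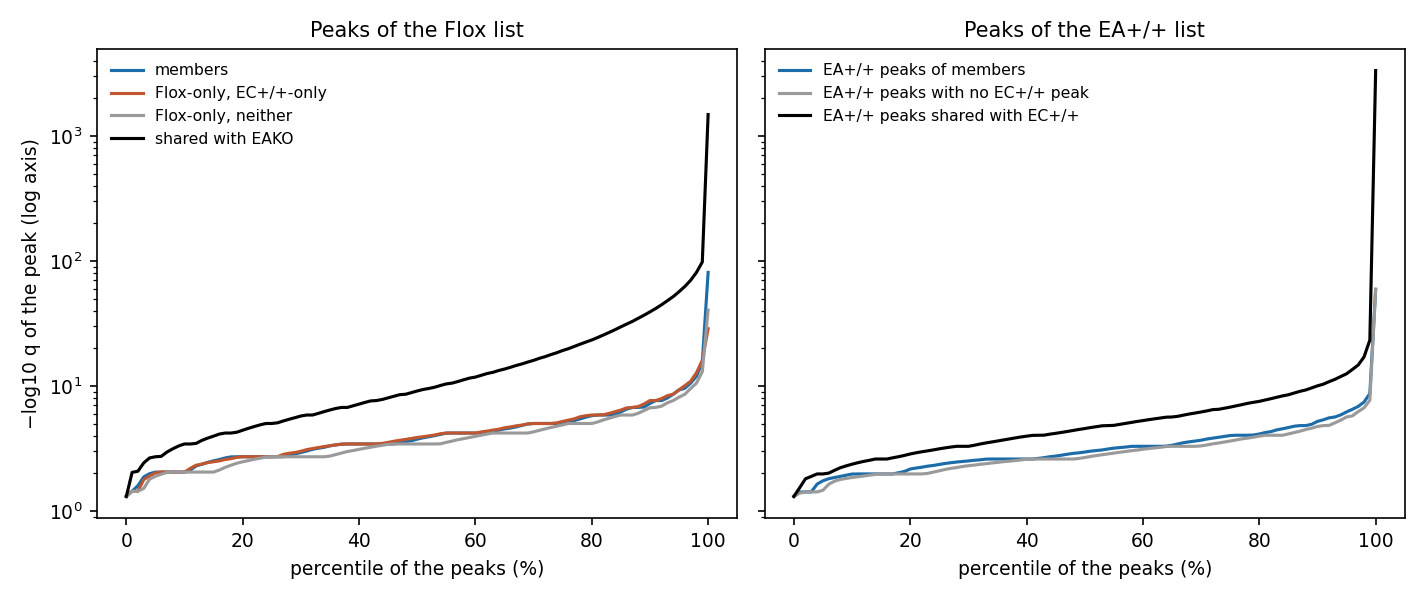
Peak strength as −log10 q (log axis) against percentile of the peaks, for 4 sets of the Flox list (left) and 3 of the EA+/+ list (right). The members' curve, with a median of 3.75, runs with that of the Flox-only peaks found in EC+/+ only and under that of the peaks shared with EAKO, whose median is 9.11.

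Presence and absence were judged at 1 bp, and some members depend on that limit. With an overlap of at least 50% of the shorter peak asked for, there were 2099 members, of which 1864 were among the 2197. The overlap with EA+/+ was 190 bp at the median and under 50 bp in 122 members, the smallest being 1 bp in regions assigned to Mars, Lima1, Gsg1 and Ccnd1. An EAKO or EC+/+ peak lay within 50 bp of 33 members, as at Rcan3, where the EAKO peak began 1 bp away with a Flox −log10 q of 4.60. Just outside the rule, 31 peaks that otherwise qualified touched an EAKO peak by under 50 bp, with 6 bp at Max and 7 bp at C530008M17Rik, and 39 touched an EC+/+ peak by under 50 bp, with 1 bp at Moap1. The nearest EAKO peak was 6.22 kb away at the median and within 1 kb in 353 members (16.1%), and the nearest EC+/+ peak 13.5 kb away and within 1 kb in 208 (9.47%).

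Open chromatin, which the rule did not use, was called at fewer members than at other Flox-only peaks. A Flox ATAC peak overlapped 479 of 2197 members, 21.8% (20.1 to 23.6), and an EAKO ATAC peak 374, 17.0% (15.5 to 18.7). Of Flox-only peaks found in EC+/+ only, 29.6% (27.5 to 31.8) overlapped a Flox ATAC peak, of those in neither knock-in list 33.1% (32.5 to 33.6), and of all Flox peaks 61.5% (61.1 to 61.8). Members stood with the opposite regions, at 19.1% (16.9 to 21.6), and 1681 members (76.5%) overlapped no ATAC peak of either library. Members had the lower share at each level of strength: within tertiles of the −log10 q of all Flox-only peaks, members had 13.7%, 16.9% and 29.8% and the other Flox-only peaks 19.9%, 28.4% and 48.3%.

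Where members did lie over ATAC peaks, a Flox peak without an EAKO peak was more frequent than the reverse. There were 142 members over a Flox ATAC peak only and 37 over an EAKO ATAC peak only. The lists themselves leaned that way, as 16.6% of Flox ATAC peaks overlapped no EAKO ATAC peak and 8.98% of EAKO ATAC peaks no Flox ATAC peak. Of the 479 members over Flox ATAC, 29.6% (25.7 to 33.9) had no EAKO ATAC peak, against 25.2% (21.7 to 29.1) for Flox-only peaks found in EC+/+ only, 18.8% for Flox-only peaks in neither knock-in list and 8.21% (7.98 to 8.45) for all Flox peaks. The intervals of the members and of the EC+/+-only set overlapped, so that these data do not set members apart from Flox-only peaks that the knock-in did not match. Of the 196 opposite regions over EAKO ATAC, 15.3% (10.9 to 21.0) had no Flox ATAC peak, against 9.89% (7.26 to 13.3) of the 374 members, with overlapping intervals. The share was 13.5% (9.56 to 18.7) for EAKO-only regions found in EA+/+ only and 10.3% for those in neither knock-in list.

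Ets1 peaks in wild-type fat covered a minority of members. RT Ets1 peaks overlapped 66 members (3.00%, 2.37 to 3.80), CS peaks 198 (9.01%, 7.89 to 10.3) and beige peaks 131 (5.96%, 5.05 to 7.03), and 320 members (14.6%) met at least 1 of the 3 lists, which hold 4056, 14858 and 30553 peaks. For Flox-only peaks found in EC+/+ only, the shares were 2.04%, 7.41% and 6.90%, with intervals that overlapped the members' in each library. Flox-only peaks in neither knock-in list had a CS share of 1.93% and opposite regions one of 4.82%, both under the members' interval. Flox-only peaks in both knock-in lists had a higher CS share than members, 21.4% (19.1 to 23.7), and overlapped Flox ATAC in 42.0% (39.3 to 44.8). All Flox peaks had 10.8% in CS and 26.4% in beige.

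The members over Ets1 peaks differed by whether they lay in open chromatin. Over Flox ATAC peaks, 59 members met a CS Ets1 peak, of which 42 (71.2%) were at promoters, 7 (11.9%) held the ETS core and 4 (6.78%) a CA repeat. Outside Flox ATAC peaks, 139 members met a CS Ets1 peak, of which 14 (10.1%) were at promoters, 1 (0.719%) held the ETS core, 39 (28.1%) a CA repeat and 58 (41.7%) a window masked as repeat for at least 50% of its letters. Of the 66 members over RT Ets1 peaks, 24 (36.4%) held a CA repeat, 41 (62.1%) were masked and none held the ETS core. The RT list as a whole had 38.3% of its summits masked and 3.23% with the ETS core, against 5.33% and 10.1% in beige.

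**Figure D4:**
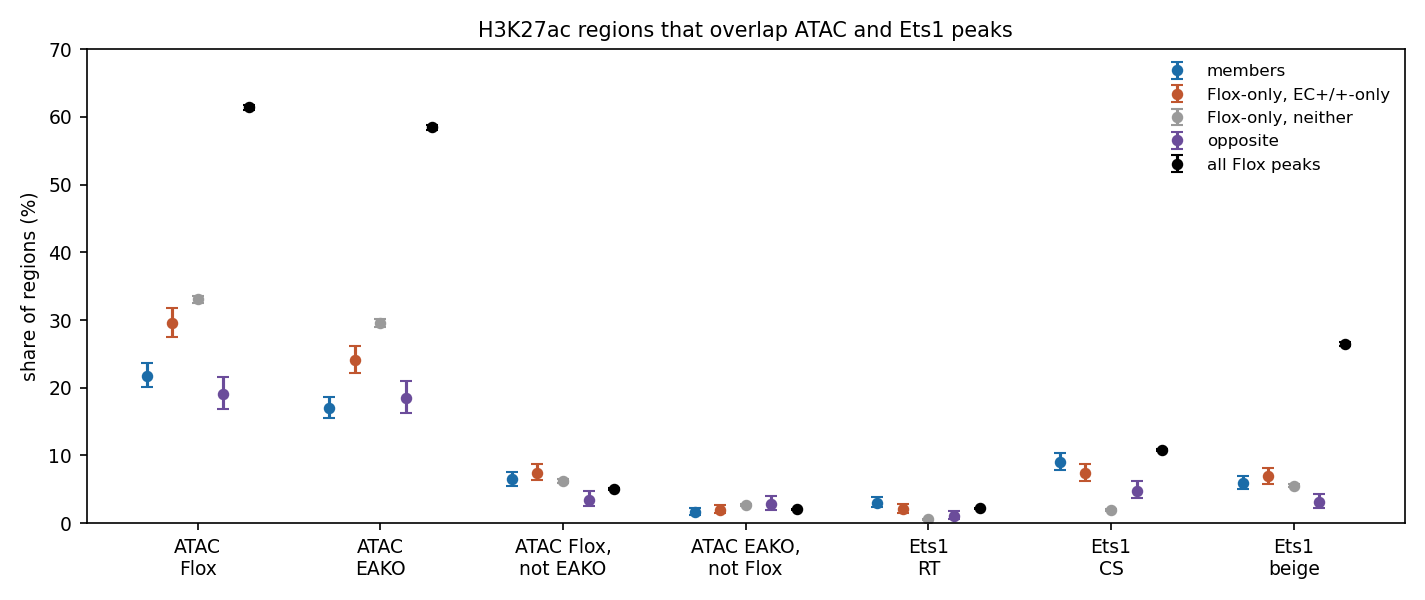
Percent of the regions in 5 sets that overlap ATAC peaks (Flox, EAKO, and each without the other) and Ets1 peaks (RT, CS, beige), as points with 95% Wilson intervals. Members are at 21.8% for Flox ATAC against 33.1% for Flox-only peaks in neither knock-in list, and at 9.01% for CS Ets1 against 1.93%. Flox-only peaks found in EC+/+ only are at 29.6% and 7.41%.

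Repeats were more frequent in members than in Flox-only peaks found in EC+/+ only and in opposite regions. A run of at least 6 CA (or TG) within 100 bp of the summit was found in 281 members, 12.8% (11.5 to 14.3), against 7.24% (6.13 to 8.55) of Flox-only peaks found in EC+/+ only, 6.05% (4.77 to 7.66) of opposite regions and 4.39% of all Flox peaks. Windows masked for at least 50% were 15.4% (14.0 to 17.0) of members, against 8.72% and 5.96% of those sets. The same held for the EA+/+ list itself, with CA repeats in 11.1% (10.7 to 11.5) of EA+/+ peaks that met no EC+/+ peak and 6.38% (6.03 to 6.74) of EC+/+ peaks that met no EA+/+ peak, and in 11.7% (10.1 to 13.5) of the EAKO-only regions found in EA+/+ only. One-sided peaks in both knock-in lists had repeats too, with CA in 10.1% (8.57 to 12.0) of such Flox-only peaks and 12.5% (9.91 to 15.7) of such EAKO-only peaks. Masked windows were 13.1% and 17.5% of these and 12.7% of the EAKO-only regions found in EA+/+ only, so members were not alone in this. The share rose with the score, from 8.35% of the 467 members under 2 to 25.8% of the 93 members at 5 or more, and 8 of the 20 members of highest score had a CA repeat or a masked window. The part of repeats in the choice of members was not tested. The 405 members with either feature overlapped Flox ATAC in 8.40% and RT Ets1 peaks in 10.4%, and the other 1792 members in 24.8% and 1.34%.

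The ETS core was found at 84 members, 3.82% (3.10 to 4.71), and at 5.41% of all Flox peaks, 5.43% of Flox-only peaks found in EC+/+ only, 2.75% of those in neither list and 2.84% of opposite regions. Its letters in reversed order, AAGGCC, were held by 13.0% of members and 13.8% of all Flox peaks. Members over Flox ATAC had the core in 8.14% (6.01 to 10.9) and those outside it in 2.62% (1.96 to 3.49), and those at promoters in 8.86% (6.44 to 12.1), so within the set it went with open chromatin and promoters. The AP-1 sequence TGANTCA was held by 5.78% (4.88 to 6.84) of members, 5.87% of opposite regions and 16.1% of all Flox peaks. TTGCNNAA, the C/EBP form, was held by 4.46% of members and 6.37% of all Flox peaks, the glucocorticoid receptor form by 3.46% and 2.75%, the EBF form by 0.592% and 0.825%, and the NF1 form by none of the members and 0.0161% of all Flox peaks. These are matches of letters in a window and not binding sites.

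**Figure D5:**
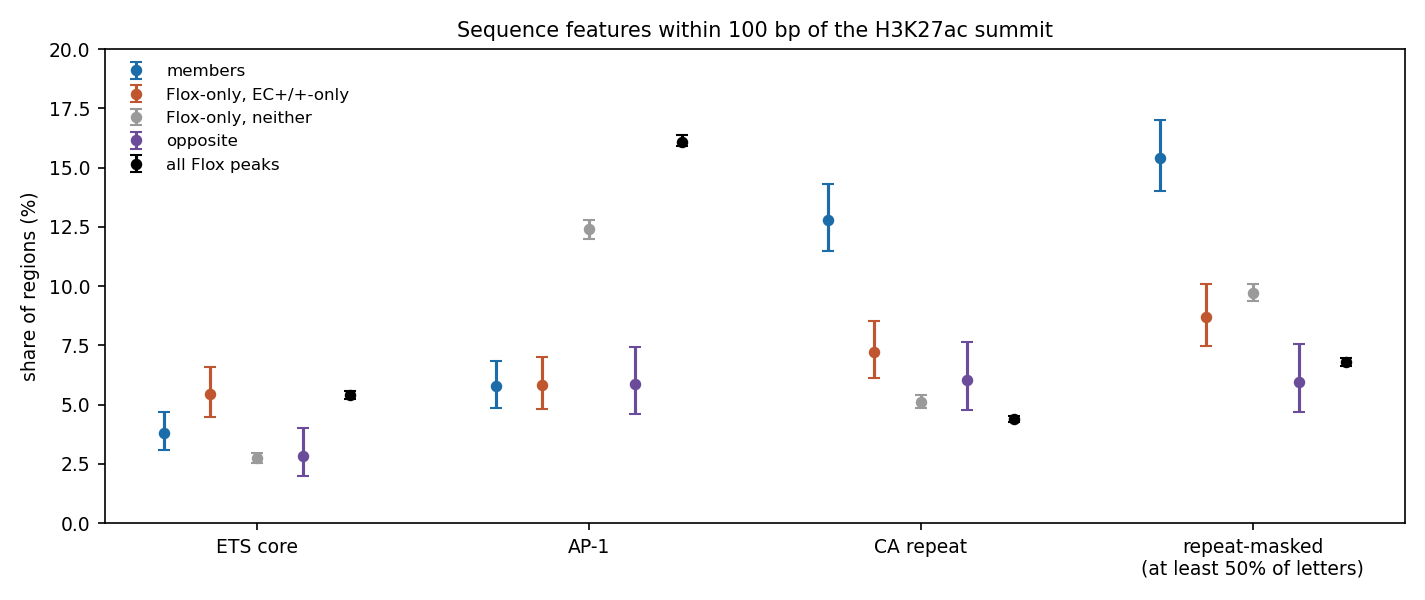
Percent of the regions in 5 sets whose window of 100 bp to each side of the summit holds an ETS core, an AP-1 sequence, a CA repeat or at least 50% repeat-masked letters, with 95% Wilson intervals. Members are at 12.8% for CA repeats and 15.4% for masked windows, against 6.05% and 5.96% of opposite regions.

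By position, 395 of 2197 members (a share of 16.4% to 19.6% by the interval) lay within 1 kb of the TSS of a protein-coding gene, 244 (11.1%) in exons, 850 (38.7%) in introns and 708 (32.2%) between genes. The promoter share was 22.1% for all Flox peaks and for Flox-only peaks found in EC+/+ only, 14.0% for opposite regions and 9.14% for Flox-only peaks in neither list. The exon share of members stood above the 6.73% of all Flox peaks and under the 14.4% of opposite regions, with 170 summits (7.74%) in coding sequence and 138 (6.28%) in UTRs. The median distance to a TSS was 13.2 kb. Over the autosomes, 2.55% (2.45 to 2.66) of Flox peaks were members and over chromosome X 0.829% (0.437 to 1.57), 9 of 1086 peaks, where EA+/+ had 338 peaks and EC+/+ 357.

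At most promoters with a member, other H3K27ac peaks were called in EAKO or EC+/+. The 395 promoter members belonged to 405 genes, of which 249 (61.5%) had another peak within 1 kb of a TSS in EAKO and 186 (45.9%) in EC+/+. Of all 21911 protein-coding genes, 13246 had a promoter peak in EAKO and 11388 in EC+/+. Among genes with a promoter region found in Flox only and EC+/+ only, 63.1% had one in EAKO. The EAKO share was thus not particular to members. For 131 genes (32.3%) the promoter had no peak in EAKO and none in EC+/+. Of the 129 members at these promoters, 76 lay over Flox ATAC and 20 over a CS or beige Ets1 peak. Of all 395 promoter members, 221 (55.9%) lay over Flox ATAC, a similar share. The 129 included Rnf111 and Ezh1, a ubiquitin ligase of TGF-beta signalling and a histone methyltransferase, with Flox −log10 q of 15.2 and 20.4 and EA+/+ values of 8.32 and 4.78. Wnt2b, a secreted Wnt ligand, and Cdh1, the epithelial cadherin, had Flox ATAC peaks there (10.5 and 23.2) and no EAKO ATAC peak.

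After the tandem repeats shown above, the strongest members by score were a mixture of distal and promoter regions. The Hic2 region, chr16:17222214-17222452, 11.1 kb from the TSS of this zinc-finger repressor gene, had a −log10 q of 25.2 in Flox and 16.0 in EA+/+. It overlapped a Flox ATAC peak of 267 and Ets1 peaks of 12.2 in RT, 19.9 in CS and 12.0 in beige, and no EAKO ATAC peak. It was the single member with a Flox ATAC peak, no EAKO ATAC peak and a peak in each Ets1 library, and its peaks in all 6 libraries ended within 164 bp of the centre, with none other within 10 kb. Whether reads at this place came from a single copy in the genome was not tested. Pak1, which encodes a kinase downstream of Rac and Cdc42, had a promoter member (chr7:97788499-97788849) of 10.9 in both libraries, with a Flox ATAC peak of 13.1 and no EAKO ATAC or Ets1 peak. The promoter member of Ndufab1 (chr7:122101624-122102028), the mitochondrial acyl carrier protein and a complex I subunit, reached 24.7 in Flox and 9.63 in EA+/+, with ATAC peaks of 76.7 in Flox and 36.0 in EAKO and Ets1 peaks of 5.08 in CS and 8.57 in beige. Dgcr8, the partner of Drosha in microRNA processing, had the highest Flox value of the promoter members in this group, 42.0 against 7.58 in EA+/+, with an EAKO peak 549 bp away. At Ndufab1 and Dgcr8 the ATAC peak was thus called in both libraries, with 129.7 in Flox and 40.4 in EAKO at Dgcr8. The others of the 20 highest that are reported here were, in order of score, Pank3, Hdac9, Fam135b, Gstm1, Armc1, Rnf111, Ggact, Ppp1r12b, Gm21119, Srrm2, Atrnl1, Asmt and Kcnip3, with scores from 8.58 down to 6.85.

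Of the 142 members over a Flox ATAC peak only, 20 also met a CS or beige Ets1 peak, 10 of them at promoters and 4 with the ETS core printed above. Such an Ets1 peak was met by 111 of all 479 members over Flox ATAC and by 288 of all 2197 members (13.1%). It was thus not more frequent where the EAKO ATAC peak was missing than over Flox ATAC in general. Gabpb1 encodes the partner of the ETS protein GABPA in a complex that regulates mitochondrial genes, and its member at chr2:126675226-126675577 had 16.1 in Flox, 4.49 in EA+/+, a Flox ATAC peak of 41.6 and Ets1 peaks of 2.09 in CS and 8.72 in beige. EAKO had H3K27ac peaks of 41.5 and 7.24 within 1 kb on each side of it, so H3K27ac was called in EAKO beside the member. The Flox ATAC peak also ran past the member to 990 bp from its centre, and an EAKO ATAC peak of 22.3 began 414 bp from that centre, so the same open region was called in EAKO over its outer part. Cox4i1, a subunit of cytochrome c oxidase, shares a promoter with Emc8, and the member there (chr8:120667718-120668774, 1057 bp wide) had 46.9 in Flox and 2.42 in EA+/+, a Flox ATAC peak of 40.0 and Ets1 peaks of 12.6 in CS and 52.7 in beige. Its nearest EAKO H3K27ac peak was 3155 bp away. Elf1, itself an ETS factor, shares a promoter with Wbp4, and the member there had 24.8 in Flox, 2.73 in EA+/+, Flox ATAC of 55.6 and Ets1 of 3.30 in CS and 20.4 in beige, with an EAKO peak 321 bp away. Its Flox ATAC peak ran to 1931 bp from the member's centre, and an EAKO ATAC peak of 31.4 spanned 482 to 1943 bp from it. Most of that open region was thus called in EAKO too. Gabpb1, Cox4i1 and Elf1 all had a lower −log10 q in EA+/+ than in Flox, in lists whose medians are 3.29 and 5.85. Adcy9, an adenylyl cyclase, had 5.42 and 6.15 with Flox ATAC of 25.2, and D1Ertd622e 5.41 and 7.42 with 18.4. Vps54 and Aldh1a2, a tethering factor for vesicles and a retinaldehyde dehydrogenase, had EA+/+ values of 2.60 and 2.50. Among members over Ets1 peaks with ATAC peaks in both libraries were Cisd3, a mitochondrial iron-sulfur protein (16.4 in Flox and 6.54 in EA+/+), and Atp1b3, a subunit of the sodium pump (22.9 and 4.81).

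Over genes, members were assigned to 1934 of 21911 protein-coding genes (8.83%) and opposite regions to 980 (4.47%), by the promoter overlapped or else the nearest TSS. Both were assigned to 207 genes, which is 10.7% of the genes with a member and 21.1% of those with an opposite region. Most genes had 1 member (1694), 204 had 2 and 36 had 3 or more. Klhdc7a, Pdcd6ip and 5530401A14Rik had 4 each, of 8, 31 and 22 Flox peaks. Hdac9, a histone deacetylase, had 3 of its 12 Flox peaks among the members, all in introns, with Flox values of 8.58, 4.20 and 4.20 and EA+/+ values of 11.3, 5.64 and 7.16, and none overlapped an ATAC or Ets1 peak. Of these 3 windows, 2 were wholly repeat-masked. Other genes with 3 members were Ebf1, a factor that drives adipogenesis, Lpin1, a phosphatidate phosphatase, Id2, Egln3, an oxygen-sensing prolyl hydroxylase, Tgfb3, Dll1, a Notch ligand, Pfkp, a phosphofructokinase, and Nr3c2, the mineralocorticoid receptor. Ebf1 had 53 Flox peaks in all and Nr3c2 had 19, so counts per gene also follow the number of peaks.

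For gene groups, the shares are best read against the 8.83% of all genes. Of 50 core autophagy genes, 4 had a member (8.00%), which were Atg5, Atg7, Atg10 and Uvrag. The Atg5 region had 3.41 in Flox and 2.60 in EA+/+, those of Atg10 and Atg7, which encode enzymes that attach ubiquitin-like Atg proteins, had 1.85 and 2.56, and 2.04 and 1.98, and all 3 were distal. The Atg7 region overlapped ATAC peaks in both libraries (97.8 in Flox) and a CS Ets1 peak of 2.87. A member of Uvrag, part of the Beclin complex, had 4.57 and 2.26, a Flox ATAC peak of 8.53, no EAKO ATAC peak and a beige Ets1 peak of 68.0. The windows of Atg7, Atg10 and this Uvrag region were 91.0%, 96.5% and 63.2% repeat-masked, and that of Atg10 held a CA repeat. Of the 10 autophagy genes that the study followed, all had a promoter peak in all 4 libraries and 2 had a member, none of them at the promoter. The study chose those genes with its own data in view, so they are no independent evidence. Its 6 mitochondrial genes had no member, and each had a promoter peak in all 4 libraries. Of 20 genes of mitochondrial biogenesis 2 had a member, Gabpb1 and Nrf1, and of 18 of mitophagy 2, among them Bnip3l, a mitophagy receptor, over a CS Ets1 peak of 3.52.

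Of 40 thermogenic and beige genes, 4 had a member (10.0%) and 4 an opposite region (10.0%). Prdm16, a coregulator of the brown and beige programme, had an exonic member with 3.49 in Flox and 4.23 in EA+/+ and also an opposite region of 4.99 in EAKO and 2.77 in EC+/+. Ppara, a receptor for fatty acids, likewise had a member of 5.43 and 5.36 and an opposite region of 5.32 and 1.92, so each had regions of both kinds. Irf4, a cold-induced factor of adipocytes, had members of 5.85 and 3.07 and of 2.71 and 4.13, and Letmd1, a mitochondrial protein, had a promoter member of 3.08 and 3.55. Within 100 kb of Ucp1, the uncoupling protein of brown and beige fat, there was 1 member, and within 100 kb of Adipoq none. Of 39 adipocyte genes 5 had a member, among them Lep (7.41 in Flox, 2.75 in EA+/+, with ATAC peaks of 71.7 in Flox and 40.0 in EAKO) and Fasn (2.90 and 4.77), and 4 had an opposite region.

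Insulin-signalling genes had members at 6 of 30 (20.0%), namely Pik3cb, Foxo1, Gsk3b, Tsc1, Rptor and Sgk1. Rptor, a subunit of the kinase complex mTORC1, had the strongest, 11.4 and 5.70, in an intron over a beige Ets1 peak of 4.39 and 60.2% masked. The Gsk3b window was 94.5% masked and held a CA repeat. Nuclear receptors and clock genes had members at 8 of 34 (23.5%), where Nr4a2 had a promoter member of 4.52 in Flox and 1.87 in EA+/+. ETS factors had members at 6 of 26 (23.1%) and opposite regions at 2. Besides Elf1 these were Etv6, with 2 members, Etv1, Elk3, Spi1 and Ets1, whose member lay 242 kb from its TSS with 2.04 in Flox and 3.04 in EA+/+. Ets1 also had 2 opposite regions, in an intron (8.71 in EAKO, 2.52 in EC+/+) and an exon (3.28 and 2.07). Among writers, erasers and corepressors of histone acetylation 4 of 29 had a member, among them Hdac9 and Crebbp, the gene of CBP (7.85 and 2.60, exonic). AP-1 and immediate early genes had 1 of 20, Jun, and extracellular matrix genes 4 of 36, Col3a1, Col15a1, Timp3 and Postn. These groups have many peaks for each gene, and members were 1.64% of all Flox peaks assigned to the insulin-signalling genes, 2.75% for the nuclear receptors, 3.11% for the ETS factors and 2.50% for all genes.

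Genes that mark other cells also held members, at shares to be read against the 8.83% of all genes. Adipose stem and progenitor genes had members at 4 of 23 (Pdgfra, Pdgfrb, Cd34 and Bmper) and opposite regions at 5, with 19 to 20 promoter peaks in the knock-out pair and 13 to 14 in the knock-in pair. Endothelial genes had members at 3 of 20 and opposite regions at 4, macrophage genes at 1 of 22 (Laptm5), lymphocyte genes at 2 of 24 (Pax5 and Zap70), mural genes at 1 of 10, and mesothelial and Schwann genes at none. Skeletal muscle genes had 2 of 10 (Myod1 and Myog) and epithelial genes 2 of 10 (Cdh1 and Grhl2). Of Flox peaks assigned to each list, members were 1.79% for progenitor, 2.03% for endothelial, 1.82% for macrophage and 2.00% for mural genes. They were 4.00% of 50 peaks for lymphocyte, 12.5% of 16 for skeletal muscle and 6.38% of 47 for epithelial genes. For all genes this share was 2.50%. The Cdh1 promoter member had 9.54 in Flox and 4.36 in EA+/+, and epithelial genes had promoter peaks at 3 of 10 in Flox and 1 in EAKO, and at 4 in EA+/+ and 2 in EC+/+. Muscle genes had promoter peaks at 4 in Flox, 2 in EAKO, 4 in EA+/+ and 1 in EC+/+. Mesothelial genes ran the other way, with 3 in Flox, 6 in EAKO, 3 in EA+/+ and 5 in EC+/+. Epithelial and muscle genes, 10 in each list, thus had more promoter peaks in the 2 libraries that define the members, and mesothelial genes fewer. In the order Flox, EAKO, EA+/+ and EC+/+, lymphocyte genes had 7, 6, 6 and 4 and progenitor genes 20, 19, 14 and 13. Macrophage (6, 6, 6 and 7), endothelial (14, 13, 9 and 9), mural (8, 7, 5 and 6) and Schwann genes (7, 6, 4 and 6) did not have more in both pairs. All 21911 genes had 13998, 13246, 11044 and 11388. The part of such cells in the result was not tested. In a bulk sample, more cells of a type and more of the mark in each cell cannot be told apart.

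The opposite regions were led by weaker peaks. The strongest by score lay in an intron of Cdk17, a cyclin-dependent kinase, with 11.1 in EAKO and 8.07 in EC+/+, and those that followed were assigned to Ube2u, Cdk14, Mest, Cdc14a, Cnot2, Eya2, Rgs3, Rapgef2 and Foxl1. Mest, a gene that rises in expanding adipocytes, had 6.13 and 16.3. None of these 10 lay at a promoter, against 5 of the 20 members of highest score, and 2 overlapped a Flox ATAC peak, Eya2 and Rgs3. Dpp4 and Pi16, markers of early adipose progenitors, had opposite regions of 5.38 and 11.9 and of 3.98 and 5.96, the latter at the promoter. Tfeb, a master factor of autophagy and lysosome genes, had an opposite region at its promoter (3.69 and 5.33), the only autophagy gene of the 50 with such a region.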

How the data were processed

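The 9 peak lists (4 of H3K27ac, 2 of ATAC-seq, 3 of Ets1, 1 library per group) were used as deposited. The authors trimmed reads with trimmomatic, aligned them with BWA to mm10 and used MACS2 on every library by itself, keeping peaks of a q-value under 0.05. Use of a control library or removal of high-signal regions is not given in the sources used here. The deposited values are, for each peak, a fold enrichment (a ratio), the −log10 of its p-value and q-value, and a score that restates the −log10 q. Here the −log10 q was used. The lists hold no read counts. The study's reporting summary lists near-equal totals of reads for Flox and EAKO H3K27ac and more for EA+/+ than for EC+/+, and no value was scaled by them. A peak absent from a list may lie under its threshold, and −log10 q grows with depth.

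Overlaps of at least 1 bp were computed with Python 3.11.15, numpy 2.4.6 and pandas 2.3.3, tested on simulated data and checked with bedtools 2.31.1. Sequence was read with pysam 0.24.0 from the RefSeq copy of GRCm38 (mm10), and genes are the 21911 protein-coding genes of GENCODE. A region went to the gene whose promoter (1 kb to each side of a TSS) it overlapped, otherwise to that of the nearest TSS. Shares carry 95% Wilson intervals. No test between groups was possible with 1 library each. Alternatives changed the overlap, the gap, the q threshold, the list lengths, the promoter width and the sequence searched.

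Members and gene lists were chosen with earlier results of these data known. Named were, apart from items not reported here, the 20 members and 10 opposite regions of highest score, genes with 3 or more members, listed genes with a member, up to 15 members by score over Flox ATAC only and over CS or beige Ets1, and regions at the edges of the rule. Other regions named, and the setting without repeats, were chosen after the values were seen. Some genes and a sequence are not reported here.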

Additional observations from a re-analysis of the deposited data

Results flagged for a closer look

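The models went opposite ways at 1767 regions found in Flox and EC+/+ and in neither EAKO nor EA+/+, and at 1402 regions found in EAKO and EA+/+ and in neither Flox nor EC+/+. They are singled out because the pair of libraries of one model differed one way and the pair of the other model the opposite way. With 1 library for each group the difference was not tested.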

How the results depend on the processing

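Of 80 alternative values for 12 results, 37 stayed within 1.5 times the count or within the counting interval of the share, and 43 moved. With a q under 0.001 for the peaks present there were 756 members and 398 opposite regions. The EA+/+ shares were then 52.1% in Flox-only, 54.2% in EAKO-only and 43.6% in shared peaks, and members overlapped Flox ATAC in 24.7%, Ets1 in 14.3% (CS), 4.37% (RT) and 8.07% (beige), and promoters in 21.6%. With each list at its 33713 best peaks there were 554 members, of which 157 were among the 2197, and 634 opposite regions, more than members. The EA+/+ shares were then 44.9%, 45.3% and 38.7%, Flox ATAC 62.6%, EAKO ATAC 56.7%, Ets1 19.5% (CS) and 24.5% (beige), promoters 36.5% and the ETS core 5.78%. With absence judged within 1 kb, Flox ATAC was 18.5%, EAKO ATAC 14.8%, beige Ets1 4.98% and promoters 14.4%. Without CA repeats and masked windows, the EA+/+ shares were 53.5%, 54.7% and 46.7%, Flox ATAC 24.8%, EAKO ATAC 19.5%, Ets1 7.20% (CS) and 1.34% (RT), and promoters 21.0%. Ets1 peaks with q under 0.001 gave 5.69% (CS), 2.23% (RT) and 4.01% (beige). By tertile of Flox strength, Flox ATAC was 13.7%, 16.9% and 29.8%. Promoters were 19.8% counted from the knock-in lists and 25.9% at 3 kb, and the ETS core was found in 5.74% of whole peaks and the longer form CCGGAAGT in 0.273% of windows. The cause of these moves was not tested. The share of regions in which both models went the same way was 49.6% to 51.2% over the 5 alternatives run for it.

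No paired analysis was possible because each group was 1 library and the labels give no replicate numbers. Read totals were near-equal in the knock-out pair, whose lists still differed in length, while in the knock-in pair a higher total went with the longer list and cannot be told apart from genotype. Most members lie in the lower part of the Flox list by −log10 q.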
